A study of Homo sapiens with 6 samples.

Results

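The transcriptome described here is that of control A375SM cells, a human melanoma line derived from A375 for its metastatic growth, as read from the 3 libraries labelled shCtrl. These cells carried a control short hairpin RNA and serve as the reference group of a series of 6 libraries, in which the other 3 carry a hairpin against PRAME and are not analysed here. The labels give the genotype as WT, the tissue as skin, the cell type as melanoma cell, and batch 1 for all 3 libraries. They call the 3 libraries biological replicates. The sources used here do not give the origin of each culture, the promoter behind the hairpin, whether the line is 1 clone, or how long the cells were grown. Spread between the libraries may therefore be technical. PolyA RNA was sequenced as paired reads of 150 bases. The libraries shCtrl_1, shCtrl_2 and shCtrl_3 held 34107332, 33439537 and 31525186 counts. The genes described were those with at least 1 CPM (counts scaled to a library total of 1000000) in all 3 libraries, called expressed below, and they numbered 12913 of 40895 gene identifiers. At this depth 1 CPM stood for 31.5 to 34.1 counts of a library.

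Melanocytes, the pigment cells of the skin, arise from the neural crest. Their identity is held by the transcription factors SOX10, PAX3 and MITF, and MITF activates the enzymes and structural proteins of the melanosome, the organelle in which melanin is made. Melanoma cells are known to move between a pigmented melanocytic state, a neural crest-like state and an undifferentiated state in which receptors such as AXL are high and pigment genes are low. A375 cells carry an activating BRAF mutation, a common driver of melanoma that signals through the MAPK cascade. All RNA here came from bulk cultures, in which fewer cells of a type and less RNA per cell cannot be told apart.

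Of the 40895 identifiers, 17432 had 0 counts in all 3 libraries, and 10550 had counts but did not reach 1 CPM in all 3. Of these 10550, 626 reached 1 CPM in 1 or 2 libraries. The expressed genes took 99.8% of all counts. Their mean level lay between 1 and 10 CPM for 3575 genes, between 10 and 100 CPM for 7165, between 100 and 1000 CPM for 2097, and at 1000 CPM or above for 76. Protein-coding genes were expressed in 11555 of 19884 cases and took 92.7% ± 0.183 of counts (mean ± SD, n = 3, as for all such values below). These cases are 58.1%, the share to set beside the counts of expressed list members below. Long noncoding RNA genes were expressed in 1056 of 17709 cases and took 1.47% ± 0.004. None of the 1194 small nucleolar RNA genes was expressed by the rule used here. Because polyA RNA was sequenced, the level of RNAs without a polyA tail cannot be read from this. The 10 most abundant genes of a library took 8.42% ± 0.153 of its counts, the 100 most abundant 23.4% ± 0.0908 and the 1000 most abundant 54.2% ± 0.0841. Between 788 and 796 genes held 50% of the counts, and 5428 to 5478 genes held 90%.

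The mRNAs of cytosolic ribosomal proteins and those encoded by mitochondrial DNA took the largest shares of counts among the 13 functional classes that were summed. The 79 mRNAs of cytosolic ribosomal proteins took 3.99%, 4.04% and 3.92% in shCtrl_1, shCtrl_2 and shCtrl_3. The 13 mRNAs encoded by mitochondrial DNA, which specify core subunits of the respiratory chain and of ATP synthase, took 3.87%, 3.82% and 4.05%. The library shCtrl_3 was thus the lowest in the first class and the highest in the second. Translation factors took 26362 ± 131 CPM in sum over 28 genes. Actins, tubulins and intermediate filament proteins, the building blocks of the cytoskeleton, took 25075 ± 301 CPM over 34 genes. RNA-binding and splicing proteins followed with 22702 ± 150 CPM and matrix proteins with 20919 ± 200 CPM. Heat shock proteins and chaperones of the endoplasmic reticulum took 18627 ± 32.7 CPM and glycolytic enzymes 13474 ± 142 CPM. The 44 nuclear-encoded genes of the respiratory chain and ATP synthase summed to 4449 ± 38.7 CPM, the lowest of the 13 classes. Nuclear ribosomal RNA, which polyA selection is meant to remove, still took 4.82% ± 0.199 of counts and mitochondrial ribosomal RNA 0.690% ± 0.0195.

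**Figure D1:**
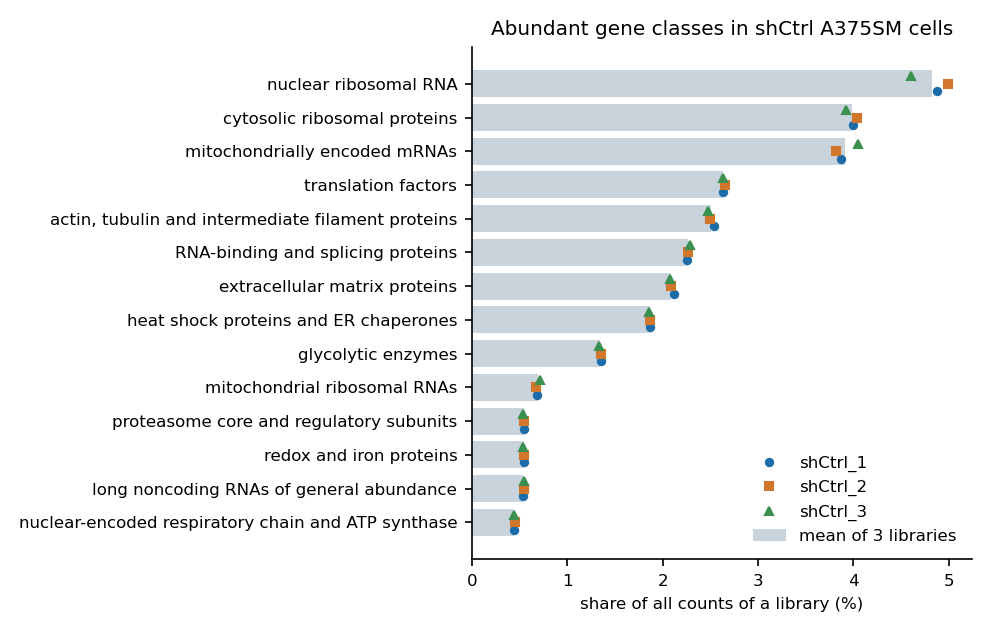
Share of all counts of a library (x axis, percent) taken by each gene class (rows), with bars for the mean of the 3 shCtrl libraries and symbols for the single libraries. Ribosomal protein mRNAs (3.92% to 4.04%) and mitochondrially encoded mRNAs (3.82% to 4.05%) stand above the other mRNA classes, and shCtrl_3 sits lowest in the one and highest in the other.

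Levels of different genes were compared per length, as TPM (each gene's count divided by its transcript length, scaled to the same total) computed from the longest annotated transcript. On this scale EEF1A1, the factor that brings charged transfer RNA to the ribosome, was the highest nuclear mRNA at 6716 ± 97.5 TPM. The glycolytic enzyme GAPDH followed at 6416 ± 137 TPM, the intermediate filament protein VIM (vimentin), typical of mesenchymal cells, at 5828 ± 69.1 TPM, and cytoplasmic actin ACTB at 5348 ± 42.5 TPM. With the merged length of all exons in place of the longest transcript these became 6809, 5480, 4091 and 4633 TPM, so that VIM and ACTB changed places. SERPINE2, a secreted inhibitor of serine proteases, stood at 3477 ± 62.3 TPM, the fifth by the longest transcript. By merged exons it had 3180 TPM, below FTL, TMSB10 and HSP90AB1 at 3755, 3515 and 3486 TPM. Its level in CPM was 6326, 6509 and 6545 in the 3 libraries. Ribosomal proteins gave 7 of the 25 highest nuclear mRNAs per length, from RPL8 at 3025 TPM to RPS12 at 2260 TPM. FN1, the matrix glycoprotein fibronectin, was also among the 25, at 2509 ± 35.9 TPM, and had 7055, 7240 and 7124 CPM. The other members of this group included the chaperones HSPA8 and HSP90AB1, the iron store protein FTL, the translation factors EIF4A1 and EEF2, and the glycolytic enzymes ENO1 and LDHA.

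Among the mitochondrial mRNAs, MT-CO1, which encodes a catalytic subunit of cytochrome c oxidase, had 10019, 9968 and 10276 CPM. The lowest was MT-ND6, a complex I subunit and the one mRNA made from the light strand, with 286, 266 and 285 CPM. Per length the range ran from 21085 ± 307 TPM for MT-CO1 to 1712 ± 65.6 TPM for MT-ND6. Of these 13 mRNAs, 12 were highest in shCtrl_3, the exception being MT-ND6.

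MALAT1, a nuclear RNA linked to splicing bodies, had the most counts among noncoding genes other than ribosomal RNA, with 3278, 3407 and 3406 CPM. NEAT1, the scaffold of nuclear paraspeckles, had 537, 472 and 458 CPM, and NORAD, which binds PUMILIO proteins, had 453, 464 and 480 CPM. KCNQ1OT1, an imprinted antisense RNA, had 407, 396 and 388 CPM. The short RNA of BCYRN1 had 170, 167 and 124 CPM, so that its lowest library was well apart from the other two. Per length BCYRN1 stood above MALAT1, at 2473 ± 422 against 1245 ± 27.3 TPM by the longest transcript and 3358 against 1667 TPM by merged exons. SAMMSON, a noncoding RNA linked to SOX10 in melanoma, had a mean of 0.960 CPM and was not expressed by the rule used here.

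The pigment program was nearly absent. Of 15 genes for pigment synthesis and melanosome proteins, 3 were expressed, where 11555 of 19884 protein-coding genes (58.1%) were. TYR, the tyrosinase that starts melanin synthesis, and TRPM1, a cation channel of melanocytes, had 0 counts in all 3 libraries. A count of 0 allows up to 0.088 CPM in shCtrl_1, 0.0897 in shCtrl_2 and 0.0952 in shCtrl_3, taking 3 counts as the limit and covering counting error only. PMEL, the fibril protein of the melanosome, had 6, 4 and 1 counts. The antigen MLANA had 0, 0 and 1 counts, the pigment enzyme DCT 1, 1 and 2, and its relative TYRP1 0, 5 and 0. The 3 expressed members were GPNMB, a transmembrane glycoprotein of melanosomes and lysosomes, with 358, 352 and 352 CPM, the transport motor MYO5A with 182, 181 and 190 CPM, and RAB27A, the small GTPase that links melanosomes to that motor, with 16.1, 17.6 and 16.9 CPM. MLPH, the linker between RAB27A and MYO5A, had 1.41, 0.957 and 1.21 CPM and missed the threshold in shCtrl_2 only.

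MITF binds an E-box whose melanocyte form is written CATGTG. Windows of 250 bases before the annotated start were read from RefSeq, assembly GRCh38.p14, for 12 of the 15 genes, and 7 of the 12 held these letters or, on the other strand, CACATG. Over all 27305 windows the share was 9.54%, over 10272 windows of expressed genes 5.56%, and over 16747 windows of the other genes 12%. Among the holders only GPNMB was expressed, and the windows of the other expressed genes of the list, MYO5A and RAB27A, did not hold the letters. The 4 windows below are those of the holders with the highest and the lowest CPM. Each runs 5′ to 3′ along the gene, with the 6 letters in capitals.
GPNMB (chr7:23246525-23246774, + strand): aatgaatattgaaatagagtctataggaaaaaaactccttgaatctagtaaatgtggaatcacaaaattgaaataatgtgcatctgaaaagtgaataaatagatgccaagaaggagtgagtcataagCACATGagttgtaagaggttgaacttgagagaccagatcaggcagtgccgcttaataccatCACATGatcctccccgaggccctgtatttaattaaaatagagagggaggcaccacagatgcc
OCA2 (chr15:28099316-28099565, - strand): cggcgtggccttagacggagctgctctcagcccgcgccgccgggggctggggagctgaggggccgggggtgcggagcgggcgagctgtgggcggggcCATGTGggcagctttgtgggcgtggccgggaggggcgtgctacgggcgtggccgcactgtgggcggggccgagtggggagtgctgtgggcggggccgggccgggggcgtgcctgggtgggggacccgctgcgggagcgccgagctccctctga
TYR (chr11:89177625-89177874, + strand): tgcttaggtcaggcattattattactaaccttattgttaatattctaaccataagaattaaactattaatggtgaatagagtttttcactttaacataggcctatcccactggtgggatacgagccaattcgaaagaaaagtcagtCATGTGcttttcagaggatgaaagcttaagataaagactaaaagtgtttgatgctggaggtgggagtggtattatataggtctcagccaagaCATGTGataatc
TRPM1 (chr15:31161161-31161410, - strand): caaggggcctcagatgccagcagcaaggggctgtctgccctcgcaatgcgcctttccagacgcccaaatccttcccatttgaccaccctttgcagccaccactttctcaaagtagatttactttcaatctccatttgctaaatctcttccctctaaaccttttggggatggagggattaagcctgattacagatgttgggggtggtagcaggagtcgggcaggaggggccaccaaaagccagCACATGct
GPNMB, at 354 ± 3.43 CPM, holds the letters at 123 and 62 bases before its start, and TYR, at 0 counts, holds them at 104 and 12 bases before its start. OCA2, a melanosomal transporter with 7, 4 and 2 counts, holds them 153 bases and TRPM1 8 bases before the start. The letters are a description of these windows and do not show binding.

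The transcription factors of the lineage were present beside this low pigment program. SOX10 (chromosome 22, 37972312 to 37984555, GRCh38) had 269, 263 and 251 CPM. MITF (chromosome 3, 69739464 to 69968332) had 44.9, 42.0 and 44.5 CPM. The neural crest factors SOX9, at 278 ± 5.45 CPM, FOXD3, at 9.60 ± 0.759 CPM, PAX3, at 12.9 ± 0.176 CPM, and TFAP2A, at 16.6 ± 0.956 CPM, were also expressed, as was the Wnt effector LEF1 with 84.1, 80.1 and 79.7 CPM. In all, 7 of 9 lineage factors were expressed, and the exceptions were IRF4 and TFEC. SOX10 and SOX9 stood at 292 ± 10.7 and 227 ± 4.08 TPM by the longest transcript and at 308 and 309 TPM by merged exons, so their order depends on the length used.

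Of 8 receptors and growth factor receptors of melanocytes, 7 were expressed. ERBB3, a partner of ERBB2 in neuregulin signalling, had 324, 312 and 314 CPM, and the insulin-like growth factor receptor IGF1R had 266, 252 and 257 CPM. The endothelin receptor EDNRB had 36.7, 33.1 and 36.0 CPM, and MC1R, the receptor for melanocyte-stimulating hormone, had 12.4, 10.9 and 10.8 CPM. KIT, the stem cell factor receptor on which melanocytes depend, had 0 counts in all 3. Of 15 further MITF target genes, 10 were expressed, among them the formin DIAPH1 at 265 ± 1.54 CPM, the protease CTSK at 73.2 ± 3.01 CPM and the cell cycle kinase CDK2 at 86.0 ± 0.856 CPM. The apoptosis inhibitor BIRC7 had 0 counts and APOE had a mean of 0.379 CPM. Across the lists on melanocyte lineage, receptors, pigment, MITF targets and clinical markers, 37 of 58 genes (63.8%) were expressed, close to the 58.1% of all protein-coding genes.

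Of a list of 16 melanoma markers, 12 (75.0%) were expressed, where 58.1% of all protein-coding genes were. NES (nestin) had 1080.1, 1029 and 1030.2 CPM, and the proteoglycan CSPG4, the melanoma antigen also called NG2, had 828, 821 and 747 CPM. S100B had 53.9, 52.1 and 53.2 CPM and S100A4 365, 377 and 354 CPM. PRAME, the antigen against which the hairpin of the other libraries is directed, had 165, 160.2 and 161 CPM. The markers that were not expressed were PMEL, MLANA, TYR and the matrix proteoglycan BCAN. Markers of lineage and of melanoma were thus present, and those of pigment were at or near 0.

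Genes of the undifferentiated melanoma state were expressed in 19 of 24 cases (79.2%) and those of the neural crest-like state in 11 of 15 (73.3%). Those of the melanocytic and transitory state were expressed in 3 of 16 (18.75%). The share over all protein-coding genes was 58.1%. The summed level was 2866 to 2953 CPM for the first list, 1347 to 1394 CPM for the second and 62.9 to 64.6 CPM for the third. These lists share members with other lists and were not tested against each other. In the undifferentiated list, NT5E, the ecto-nucleotidase CD73, had 471, 487 and 506 CPM. AXL, a receptor tyrosine kinase bound by GAS6, had 359, 345 and 349 CPM. The lysyl oxidase relative LOXL2 had 437, 420.2 and 425 CPM, the caveolar coat protein CAV1 324, 310 and 329 CPM, and FOSL1, an AP-1 factor induced by MAPK signalling, 182, 172 and 177 CPM. The chemokine CXCL8 had 128, 127 and 120 CPM and the Wnt ligand WNT5A 139, 138 and 141 CPM. The members under the threshold in at least 1 library were SLIT2, NRG1, F2RL1, IL6 and ROR2, of which ROR2 had 0 counts and the cytokine IL6 1, 0 and 1.

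**Figure D2:**
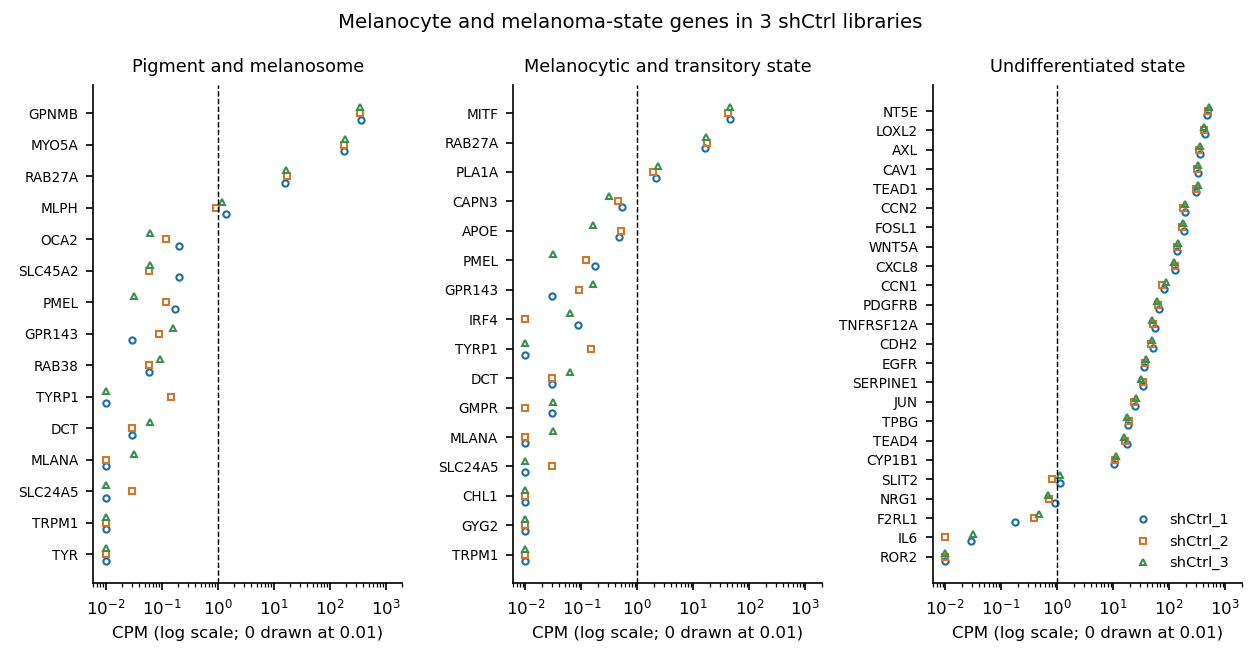
CPM of each member (x axis, log scale, with 0 drawn at 0.01) in the 3 shCtrl libraries (symbols) for the pigment list and for the lists of the melanocytic and undifferentiated states, with the 1 CPM threshold as a dashed line. Of the pigment genes 3 of 15 lie at 1 CPM or above in all 3 libraries, of the melanocytic and transitory genes 3 of 16, and of the undifferentiated genes 19 of 24.

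In the neural crest-like list, the neurotrophic factor GDNF had 113, 114 and 111 CPM, the retinoid receptor RXRG 58.6, 59.4 and 64.0 CPM, and the nerve growth factor receptor NGFR 13.7, 11.8 and 12.3 CPM. GFAP, TMEM176A, TMEM176B and GFRA2 were not expressed. Of 21 neural crest specifier factors, 17 were expressed, with ETS1 at 230 ± 7.18 CPM, TFAP2C at 94.0 ± 2.48 CPM and TWIST1 at 40.5 ± 1.81 CPM, while PAX7, TFAP2B, SOX8 and NR2F1 stood below 0.2 CPM on average.

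Factors that drive the epithelial-to-mesenchymal transition were expressed in 8 of 11 cases (72.7%), where 58.1% of all protein-coding genes were. PRRX1 had 605, 621 and 631 CPM. Per length it took 62.9% ± 0.642 of the list's level by the longest transcript and 52.1% by merged exons. ZEB1, a repressor of epithelial genes, had 144, 145 and 154 CPM, and SNAI2 50.3, 51.2 and 54.1 CPM. TCF4 had 0 counts, and SNAI3 and KLF8 were near 0. Among 127 transcription factors on the lists, 69 were expressed. The 12 highest per length were PRRX1, SOX10, SOX9, ETS1, HOXB2, TFAP2C, SOX5, TWIST1, NR2F2, ZEB1, LEF1 and TFE3, of which 11 were also among the 12 highest by merged exons.

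Of 15 cadherins, the calcium-dependent adhesion proteins, 4 (26.7%) were expressed, where 58.1% of all protein-coding genes were, and 9 had 0 counts. CDH19, a type II cadherin of Schwann cell precursors, had 86.4, 92.8 and 96.7 CPM. CDH13, which lacks a cytoplasmic part, had 75.0, 71.0 and 75.5 CPM, and the mesenchymal cadherin CDH2 had 51.7, 47.7 and 48.5 CPM. CDH1, the epithelial cadherin by which melanocytes bind keratinocytes, had 1, 0 and 0 counts.

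Of 32 collagen chains, 20 (62.5%) were expressed, near the 58.1% of all protein-coding genes, and chains of one type differed widely. Among the basement membrane chains of type IV, COL4A1 had 914, 888 and 890.2 CPM and COL4A2 1007, 953 and 943 CPM, while COL4A3, COL4A4 and COL4A6 had means of 0.0311, 0.250 and 0.0106 CPM. Among fibrillar chains, COL5A2 had 362, 352 and 348 CPM, whereas COL1A2 had 0 counts, COL1A1 a mean of 0.110 CPM and COL3A1 a mean of 0.0301 CPM. The microfibril chains COL6A1 and COL6A2 had means of 457 ± 23.9 and 375.1 ± 17.9 CPM. The laminin chains LAMA4, LAMB1 and LAMC1, which can assemble into 1 trimer, had means of 820 ± 13.6, 788 ± 9.18 and 584 ± 2.59 CPM. Of 12 laminin chains, 7 (58.3%) were expressed, near the share of all protein-coding genes. The matricellular proteins TNC, at 2001 ± 42.9 CPM, THBS1, at 2548 ± 105 CPM, and SPARC, at 1349 ± 2.09 CPM, were all above 1000 CPM. Of 26 integrin subunits, 16 (61.5%) were expressed, also near that share. They were led in CPM by the common beta chain ITGB1 with 646, 658 and 675 CPM and by ITGB3, part of the vitronectin receptor, with 588, 584 and 563 CPM. Subunits of leukocytes were low, and ITGAL had 0 counts.

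Among matrix proteases and their inhibitors the inhibitors led. TIMP3, bound to the matrix, had 2837, 2815 and 2868 CPM beside the level of SERPINE2 given above. Per length SERPINE2 took 51.8% ± 0.533 of the summed level of the 23 genes, or 45.4% by merged exons. The membrane protease MMP16 had 344, 360 and 357 CPM and the gelatinase MMP2 117, 111 and 113 CPM, whereas the other gelatinase, MMP9, had 0, 1 and 1 counts.

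All 13 kinases, GTPases and scaffolds of the MAPK list and all 19 genes of its output and feedback were expressed. BRAF had 63.5, 62.1 and 63.7 CPM and MAP2K1, which encodes MEK1, 77.3, 76.3 and 74.5 CPM. NRAS had 182, 189 and 198 CPM. Among the outputs, CCND1 (cyclin D1) had 730.2, 709 and 749 CPM, the phosphatases DUSP6 and DUSP4 had 219 ± 5.55 and 359 ± 5.69 CPM, and the feedback inhibitor SPRY4 had 281, 273 and 267 CPM. SPRY1, from the same family as SPRY4, was the lowest member at 3.80 ± 0.511 CPM.

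Of 35 receptor tyrosine kinases, 18 (51.4%) were expressed, where 58.1% of all protein-coding genes were. AXL took 26.2% ± 0.193 of the list's summed level per length, or 30.1% by merged exons. RET, ROR2 and KIT had 0 counts. All 16 genes of the list on PI3K and AKT signalling were expressed. The ubiquitin ligase MDM2 had 180, 183 and 184 CPM.

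All 26 proliferation genes were expressed, with the marker MKI67 at 1195, 1180.0 and 1247 CPM and the topoisomerase TOP2A at 669, 677 and 683 CPM. Among cell cycle regulators the inhibitors CDKN2B and CDKN2A, neighbours on chromosome 9, were low: CDKN2B had 0 counts, and CDKN2A had 0.821, 1.196 and 1.43 CPM. CDKN1A (p21) had 56.4, 54.7 and 54.2 CPM. TERT, the catalytic subunit of telomerase, had 1.61, 1.47 and 1.17 CPM. TERC, its RNA subunit, which is not polyadenylated in mature form, had 3, 1 and 0 counts.

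MCL1, which blocks apoptosis, was the highest of 16 BCL2 family genes by either length and took 57.2% ± 0.549 of their summed level per length. It had 547, 558 and 541 CPM, and BCL2 itself had 6.13, 5.41 and 6.03 CPM. Of the Hippo pathway list 15 of 16 genes were expressed, and the coactivator WWTR1 (TAZ) had 854, 882 and 907 CPM where YAP1 had 116, 120.1 and 129 CPM. The activin subunit INHBA had 544, 597 and 589 CPM. Among 29 cytokines and chemokines, 11 were expressed. IL24 had 156, 172 and 163 CPM beside the level of CXCL8 given above, while CXCL1, IL18 and IL15 had 0 counts.

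Of 18 genes for MHC class I presentation, 17 were expressed, with the light chain B2M at 375.3, 389 and 393 CPM. Of 12 class II genes 6 were expressed, at low levels: CD74, the invariant chain, had 5.69, 5.11 and 5.36 CPM and the class II regulator CIITA 8.24, 7.63 and 8.91 CPM. Of 35 interferon pathway and interferon-stimulated genes, 29 were expressed, led among the stimulated genes by MX2 in CPM (202, 194 and 197). CGAS, the sensor of cytosolic DNA, had 4, 2 and 2 counts. Among 15 checkpoint ligands, 7 were expressed, with CD276 at 89.0 ± 0.973 CPM, while CD274 (PD-L1) had 0.880, 0.748 and 0.476 CPM.

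Cancer-testis antigens, genes normally restricted to germ cells, were expressed in 16 of 35 cases (45.7%) and had 0 counts in 11. The share expressed over all protein-coding genes was 58.1%. MAGEA4 had 787, 802 and 776 CPM and took 49.3% ± 0.664 of the list's summed level per length, or 39.6% by merged exons. MAGEA3 had 135, 133 and 135 CPM. Members of this family share long stretches of sequence.

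Other cell types were checked with 14 marker lists that held 173 distinct genes, of which 29 (16.8%) were expressed and 71 had 0 counts in all 3 libraries. No member was expressed in 5 lists: endothelial cells, T and NK cells, erythroid cells and platelets, skeletal and cardiac muscle, and hepatocytes. Their summed levels ranged from 3.01 to 4.07 CPM for endothelial markers and from 0.0293 to 0.0317 CPM for T and NK markers. The defining genes PTPRC of leukocytes, EPCAM of epithelium, CDH5 of endothelium, DCN of fibroblasts, KRT5 of keratinocytes, HBB of red cells and ALB of liver all had 0 counts. Keratinocyte markers were expressed in 2 of 14 cases (KRT10 and FLG, sum 30.4 to 31.9 CPM) and fibroblast markers in 3 of 12 (FAP, PDGFRB and PDGFRA, sum 111 to 114 CPM). The lists with most expressed members were those of Schwann cells and glia, 7 of 14 with a sum of 609 to 616 CPM, and of smooth muscle and pericytes, 6 of 10 with a sum of 1014 to 1104 CPM. Of the 29 expressed markers, 8 also stand on the melanocyte, neural crest or state lists, among them CSPG4, MCAM, PDGFRB, ERBB3, S100B and CDH19.

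Of the 21 others, 7 had 10 CPM or more. The neuronal tubulin TUBB3 had 187, 183 and 182 CPM, and KRT18, a keratin of simple epithelium, had 71.3, 70.7 and 66.6 CPM where its usual partner KRT8 had 6.803 ± 0.394 CPM. CD68, a lysosomal protein used as a macrophage marker, had 42.3, 44.0 and 43.1 CPM, and CD22, a lectin of B cells, had 45.8, 40.6 and 42.6 CPM. In the myeloid list the other 12 members were not expressed, and in the B cell list the other 7 were not. The part of other cells in these levels was not tested.

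**Figure D3:**
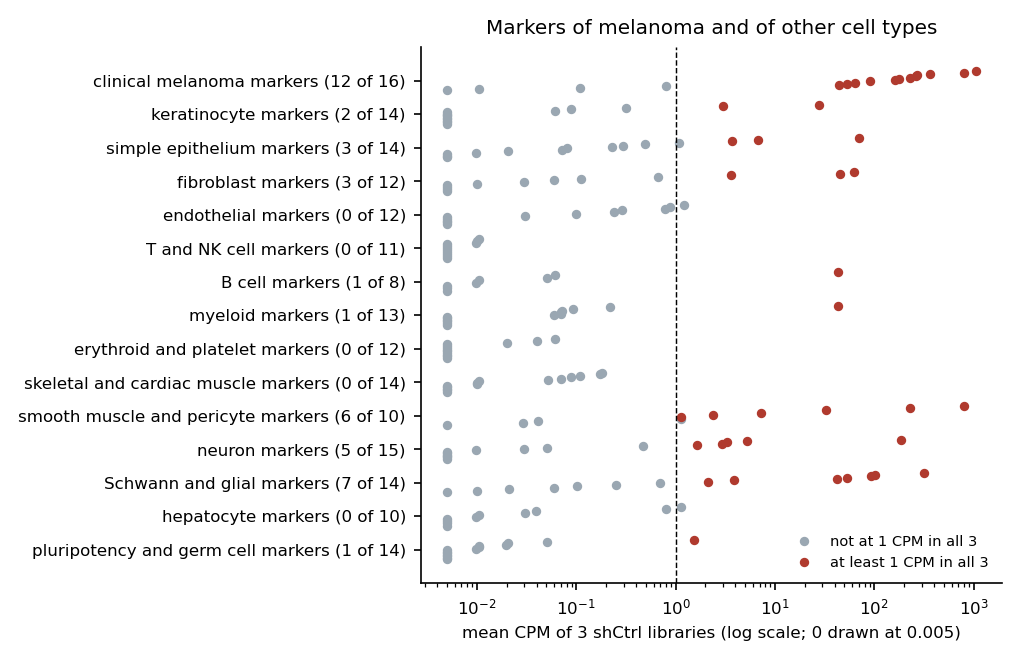
Mean CPM over the 3 shCtrl libraries (x axis, log scale, with 0 drawn at 0.005) of each marker gene (points) in the list of melanoma markers and in 14 lists of other cell types (rows, with the number expressed). Red points are expressed in all 3 libraries, and 5 of the 14 lists have none.

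Of 40 factors that define other tissues, 9 (22.5%) were expressed, where 58.1% of all protein-coding genes were, and 14 had 0 counts. RUNX1, a blood and epithelial factor, had 77.4, 77.2 and 77.5 CPM. The cardiac factors GATA4 and NKX2-5 had 34.8, 34.7 and 34.6 CPM and 13.1, 12.7 and 12.8 CPM, and WT1, of kidney and gonad, had 12.3, 12.2 and 13.3 CPM. GATA2, NEUROG2, OLIG2 and SOX2 were also expressed, each with a mean under 10 CPM. Of the 9 expressed factors, 5 had 10 CPM or more in every library, and not all of the 9 are named here. HOX genes, which mark position along the body axis, were expressed in 17 of 21 cases in the A and B clusters and in 14 of 18 in the C and D clusters. HOXB2 was the highest at 65.5, 63.5 and 66.0 CPM, and HOXB1 and HOXC11 had 0 counts.

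In sets of related genes, 1 member usually held most of the RNA. Over 16 such sets, the highest member took more than 50% of the summed level per length in 12 sets by the longest transcript and in 11 by merged exons, and it was the same gene by both lengths in 14. ENO1 took 98.5% ± 0.0231 of the enolases, LGALS1 87.6% ± 0.657 of the galectins and HK1 81.7% ± 0.316 of the hexokinases. LDHA took 64.4% ± 0.554 of the lactate dehydrogenases and the lactate transporter SLC16A1 67.3% ± 0.781 of the monocarboxylate transporters. The 2 sets in which the highest gene depended on the length were the tetraspanins and the SOX factors. Among the MiT factors TFE3, a lysosomal regulator, stood above MITF by either length and took 67.6% ± 1.28.

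The 3 libraries resembled each other closely. Between any pair, 91.9% to 93.2% of expressed genes differed by less than 1.2-fold and 10 to 13 genes by more than 2-fold. The biological coefficient of variation, the spread left after counting noise, was 3.07% by edgeR, and the median coefficient of variation of a gene was 3.89%. It was 12.4% for genes of 1 to 2 CPM and 1.99% for those of 100 to 1000 CPM. Counting noise alone gave a median of 3.37% over all expressed genes, 14.05% from 1 to 2 CPM and 1.33% from 100 to 1000 CPM. The median of the low genes thus lay below counting noise and shows no wider spread between libraries. The spread of a gene exceeded counting noise for 1422 of 12913 genes, or 11.0% (index of dispersion, Benjamini-Hochberg adjusted p under 0.05). Without shCtrl_1 the number was 459 and without shCtrl_3 it was 348, whereas without shCtrl_2 it was 1407. Among the 1422 genes the library farthest from the others was shCtrl_3 for 699, shCtrl_1 for 535 and shCtrl_2 for 188. The calls covered 76.3% of the genes at 1000 CPM or above and 0.998% of those between 1 and 2 CPM.

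**Figure D4:**
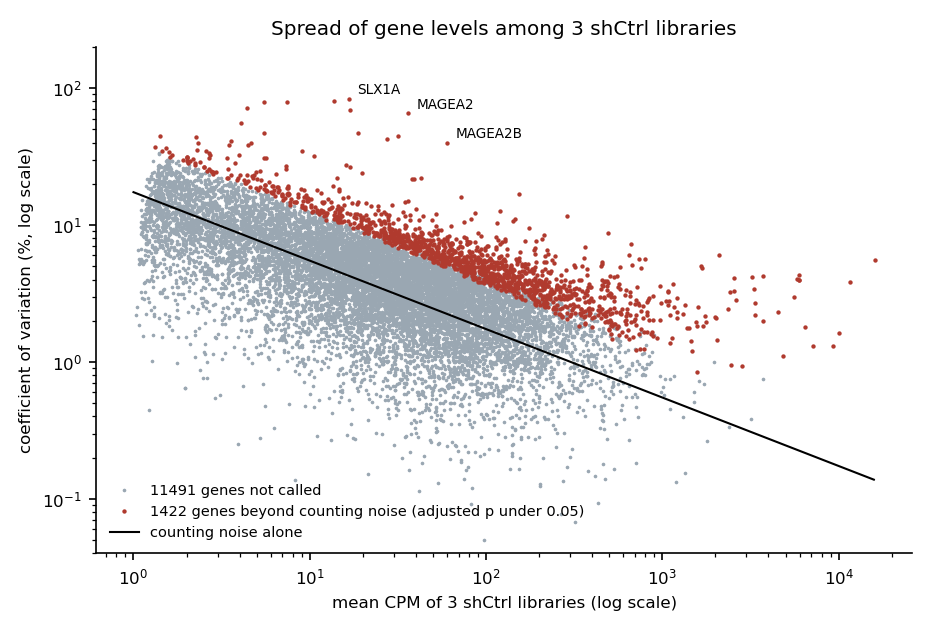
Coefficient of variation over the 3 shCtrl libraries (y axis, percent, log scale) against mean CPM (x axis, log scale) for the 12913 expressed genes, with the line that counting noise alone gives. The 1422 red genes exceed it by the test, and SLX1A and MAGEA2 lie far above the line at 84.0% and 66.0%.

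Ribosomal protein and mitochondrial mRNAs differed in which library was highest. Of the 79 ribosomal protein mRNAs, 58 were highest in shCtrl_2 and 55 lowest in shCtrl_3, and 48 of 79 exceeded counting noise. Of these 79 genes 78 had 100 CPM or more, and between 100 and 1000 CPM 28.1% of all genes exceeded it. All 13 mitochondrial mRNAs exceeded it, with 12 highest in shCtrl_3. Their median level was 3241 CPM, and 76.3% of all genes at 1000 CPM or above exceeded counting noise. Over all expressed genes, 27.2% were highest in shCtrl_2, 34.1% were highest in shCtrl_3 and 37.4% were lowest in shCtrl_3. The library shCtrl_3 had the lowest total, and the part of depth or handling in these shifts was not tested. Among lineage genes, none of the 3 expressed pigment genes, 1 of 7 lineage factors and 6 of 19 expressed genes of the undifferentiated list exceeded counting noise. Of those 19 genes 9 had 100 CPM or more, and the share over all genes was 9.002% between 10 and 100 CPM and 28.1% between 100 and 1000 CPM.

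The widest spread belonged to genes that share sequence or overlap. SLX1A and SLX1B, near-identical copies of a structure-specific nuclease subunit on chromosome 16 (GRCh38.p14, 30193843 to 30197566 and 29454533 to 29458220), had 28.1, 1.08 and 20.8 CPM and 19.7, 47.5 and 27.8 CPM. Their sum was 47.9, 48.5 and 48.5 CPM, so that a coefficient of variation of 84.0% for SLX1A and 45.1% for SLX1B became 0.784%. The antigens MAGEA2 and MAGEA2B had coefficients of variation of 66.0% and 40.0%, and their sum 0.152%. SNURF and SNRPN, which lie on a shared transcript of the imprinted region of chromosome 15, had 80.0% and 42.9%, and their sum 3.03%. POLG, the mitochondrial DNA polymerase, had 29.9, 6.61 and 14.4 CPM, and the overlapping reading frame POLGARF 0, 22.3 and 17.3 CPM. The coefficient of variation of their sum was 4.72%. Among expressed genes with a mean of 10 CPM or more, these 4 pairs held 7 of the 8 with the largest spread. The remaining gene was RNA45SN3, 1 of 5 copies of the ribosomal RNA precursor. POLGARF, at 0 CPM in shCtrl_1, did not count as expressed and was not ranked. CTAG1A and CTAG1B, copies of the antigen NY-ESO-1, had 1.44, 7.54 and 13.3 CPM and 12.4, 6.25 and 0 CPM, with sums of 13.9, 13.8 and 13.3 CPM. The sums were formed after the single values had been seen. CTAG1A counted as expressed and CTAG1B did not, although the pair reached 13 CPM in each library.

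**Figure D5:**
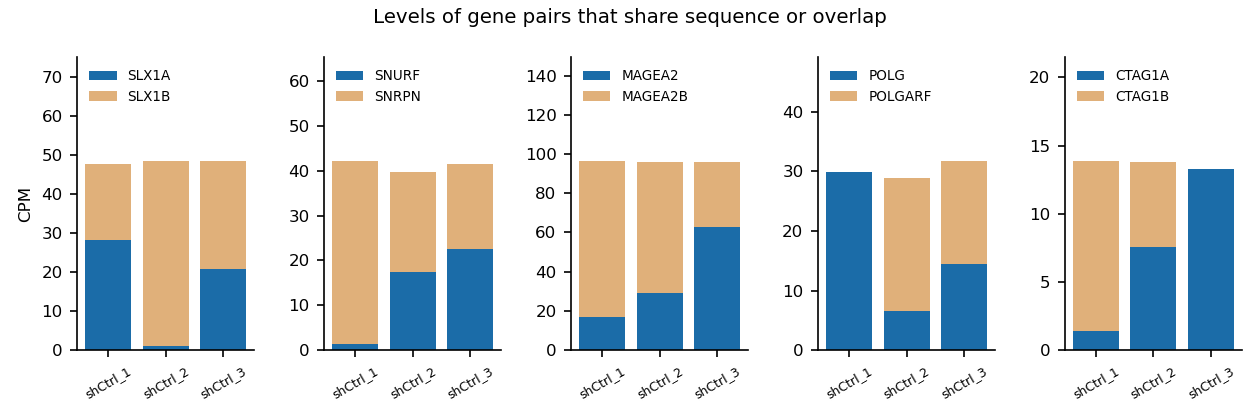
CPM (y axis, from 0) of 5 gene pairs that share sequence or overlap, stacked by gene, in the 3 shCtrl libraries (x axis). The division within a pair changes from library to library, and the height of the stack stays near 48 CPM for SLX1A with SLX1B and near 96 CPM for MAGEA2 with MAGEA2B.

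At the other end, DNM2, the GTPase that cuts endocytic vesicles from the membrane, had 97.4, 97.3 and 97.3 CPM, a coefficient of variation of 0.05%. RPL14, DDX18, PMM2 and SLC25A44 followed, all under 0.1%, which is below what counting noise gives at their depth. At the threshold of 1 CPM, the genes just inside were CENPS-CORT, ITPR3-AS1 and CFAP61-AS1, each with 1.02 CPM in its lowest library, and those just outside were SLCO4A1-AS1, TM4SF19-DYNLT2B and LOC101927610, each with 0.997 CPM.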

How the data were processed

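The 3 shCtrl libraries were polyA RNA-seq libraries of bulk A375SM cells. The authors deposited a file of raw counts for each library, whole numbers keyed by NCBI gene identifier, per the file headers. The submitters' processing notes name fastp, STAR, Salmon, GRCh38 and hg38 without versions. The sources used here name no counting tool, annotation or strand setting, so genes with a near-identical copy, an overlapping gene or an antisense partner are uncertain.

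Each file had 40929 rows, and 34 repeated identifiers were summed. RefSeq (GRCh38.p14) gave symbols and coordinates for 40789 of 40895 identifiers. Counts were scaled to the library total (CPM), with 3 counts as the limit a count of 0 allows. Per-length levels used the longest GENCODE release 29 transcript, which existed for 12204 of the expressed genes. The biological coefficient of variation came from edgeR 4.0.16 (R 4.3.3) with TMM scaling and an intercept only. Spread was tested with the chi-square index of dispersion (2 degrees of freedom), adjusted over 12913 genes. In 20 simulations with these means and depths, the test found 17 to 25 of 50 genes given an added spread of 10%, 28 to 41 at 20%, 34 to 47 at 30% and 40 to 49 at 50%, and called 4 to 13 of 12713 with none. Those 12713 genes had counting noise only, and library totals stood in place of TMM sizes. The rates therefore need not hold for the real libraries, where many more genes were called. A simulated 3% biological coefficient of variation was estimated as 3.01%.

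The 81 gene lists (1309 names, 1305 found) and the members were chosen with earlier results of these data known. Genes were named by a rule: the highest coding and noncoding genes, members of the lists, and the genes next to the threshold. The rule also took the 8 widest and 5 narrowest spreads among expressed genes with a mean of 10 CPM or more. CTAG1A, CTAG1B and POLGARF in the account of shared sequence were chosen after their values were seen. No groups were compared, and the shPRAME libraries were not used. Alternatives were other thresholds, TMM sizes, totals without ribosomal RNA, another length, and leaving out each library. Results of some listed genes are not given.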

Additional observations from a re-analysis of the deposited data

How the results depend on the processing

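The number of expressed genes was 13987 at 0.5 CPM and 11914 at 2 CPM against 12913 as reported, 13217 when 2 of 3 libraries sufficed, and 12997 to 13032 when 1 library was left out. Expressed markers of other cell types numbered from 25 at 2 CPM to 38 at 0.5 CPM, and melanocyte lineage and pigment genes from 37 to 39 over the thresholds. With ribosomal RNA taken out of the total, the share of ribosomal protein mRNAs became 4.22%, that of mitochondrial mRNAs 4.14% and that of the 100 most abundant genes 19.7%, since the total is smaller and ribosomal RNA genes leave the top 100. Leaving out 1 library gave 3.96% to 4.02%, 3.84% to 3.96% and 23.4% to 23.5%. The biological coefficient of variation ranged from 2.43% to 4.004% when 1 library was left out. Genes beyond counting noise numbered 301 with Bonferroni adjustment and 348 to 1407 when 1 library was left out. CPM values of the named genes were multiplied by 1.06 without ribosomal RNA and by 0.996 to 1.00 with TMM sizes. Of 848 named genes with a per-length level above 0, 73 fell by more than 1.5 times with merged exons and none rose by that much. No paired analysis was possible because no groups were compared here, and the values come from no test between groups. The depth limits what can be said of genes at 0 counts, whose level may still reach 0.0952 CPM.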
